A study of Caenorhabditis elegans with 2 samples.

Results

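The 8 genes described here encode parts of the CDC-48 and ubiquitin system of the nematode Caenorhabditis elegans: cdc-48.1, cdc-48.2, ufd-1, npl-4.1, npl-4.2, ubq-1, ubq-2 and uba-1. They are 8 of 19973 protein-coding genes on the 6 nuclear chromosomes. They were chosen by the signal of the cdc-48.1 peak and its paralogue in these data together with their part in the same system, so every count over them is a description and carries no test. A peak was given to a gene when its summit, the position of highest signal in the peak, lay in a window of 1000 bp before and 200 bp after a transcript start, or inside the gene.

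The data are peak lists from chromatin immunoprecipitation and sequencing (ChIP-seq) of the homeodomain protein CEH-82 in whole first-stage (L1) larvae of mixed sex. The animals were of strain OP212, unc-119(ed3) III; ddEx58, and carried F45C12.2, which is ceh-82, with a GFP-FLAG tag at the C terminus of the protein. The strain name gives the construct as an extra-chromosomal array, while another label calls it an insertion, and the copy number is not given. There was 1 group with 2 biological replicates, no untagged or treated group, and no reads, so neither binding of other factors nor a difference between conditions can be read from these lists. Whole larvae mix many cell types, and a signal cannot be placed in any of them.

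CDC-48, known as p97 or VCP in mammals, is an ATPase that pulls ubiquitinated proteins out of membranes, chromatin and complexes so that the proteasome can degrade them. The adaptor pair UFD-1 and NPL-4 binds the ubiquitin chain on the substrate and hands it to CDC-48. Ubiquitin itself is made as a precursor, either a chain of ubiquitin units or a fusion to a ribosomal protein, and is activated by the E1 enzyme before E2 and E3 enzymes attach it to a substrate. In C. elegans the paralogues cdc-48.1 and cdc-48.2 both encode CDC-48 and can stand in for each other in the embryo.

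Only cdc-48.1 and ubq-2 had a peak in the thresholded list, the authors' list of peaks kept by irreproducible discovery rate. Of its 2052 peaks, 1935 overlapped an entry in each replicate, so a peak in it need not be seen in both. The cdc-48.1 peak was the third strongest of 2052. The polyubiquitin gene ubq-1 stood just below the threshold, cdc-48.2 and uba-1 had weak entries only, ufd-1 had 1 weak entry in 1 replicate, and npl-4.1 and npl-4.2 had none.

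The sequences at the summits of cdc-48.1, cdc-48.2, ubq-1 and ubq-2 follow as examples only. They do not show how strong and weak entries differ. They are from the RefSeq sequence of WBcel235 (ce11), each read 5′ to 3′ on the strand of its gene. The first is the whole cdc-48.1 peak, chrII:10563480-10563658, with capitals on the 6-base words that it shares with other very strong peaks, as described further on. The others are the 100 bp at the strongest pooled summit of the gene: chrII:8137866-8137965 for cdc-48.2, chrIII:5940604-5940703 for ubq-1 with a GATAA match in capitals, and chrIII:12978954-12979053 for ubq-2 with a GAGAGA match in capitals. Both matches in capitals are read from the opposite strand.
cdc-48.1: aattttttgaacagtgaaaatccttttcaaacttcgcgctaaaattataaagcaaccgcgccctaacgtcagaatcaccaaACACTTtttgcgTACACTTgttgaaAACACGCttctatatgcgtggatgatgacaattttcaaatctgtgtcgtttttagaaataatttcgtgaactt
cdc-48.2: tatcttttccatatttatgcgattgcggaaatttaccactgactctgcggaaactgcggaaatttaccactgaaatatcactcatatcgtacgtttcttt
ubq-1: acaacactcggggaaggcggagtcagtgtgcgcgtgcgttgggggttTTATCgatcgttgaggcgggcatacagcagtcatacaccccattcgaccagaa
ubq-2: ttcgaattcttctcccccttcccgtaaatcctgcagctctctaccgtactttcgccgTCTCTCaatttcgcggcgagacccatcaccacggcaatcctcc

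All lists were on ce11. The thresholded list held 2052 peaks with signal from 22.3 to 406, where signal is the score the authors gave each peak, which is never negative. The relaxed lists, named by the authors as holding both peaks and background, had 30000 entries for the pooled replicates (signal 4.47 to 406, median 6.26), 16551 for replicate 1 (2.00 to 94.6, median 2.91) and 30000 for replicate 2 (3.71 to 329, median 5.26). A weak entry in them is therefore not held to be a site of binding. The thresholded peaks were the 2052 strongest of the pooled list, with the weakest of them at 22.336 and the strongest pooled entry outside at 22.331. Scales differ between lists, so a signal is compared within 1 list, by value or by rank, where rank 1 is the strongest. The ceh-82 gene had no entry in any list. The gene mutated in the strain, unc-119, had a thresholded peak in an intron (signal 90.7, rank 220), as 10.9% of protein-coding genes had a peak. These values do not tell whether the construct was as labelled.

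Of the 8 genes, 2 had a thresholded peak, beside 10.9% of all protein-coding genes. In the pooled relaxed list 5 of the 8 had an entry, beside 60.9% of all protein-coding genes. Replicate 1 gave 5 of 8, beside 44.9%, and replicate 2 gave 6 of 8, beside 61.9%. An entry in a relaxed list is thus common among all genes, and the members' counts there say little about them. What sets the 8 genes apart from each other is the strength and place of the entry, as the plot of entries along each gene shows.

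**Figure D1:**
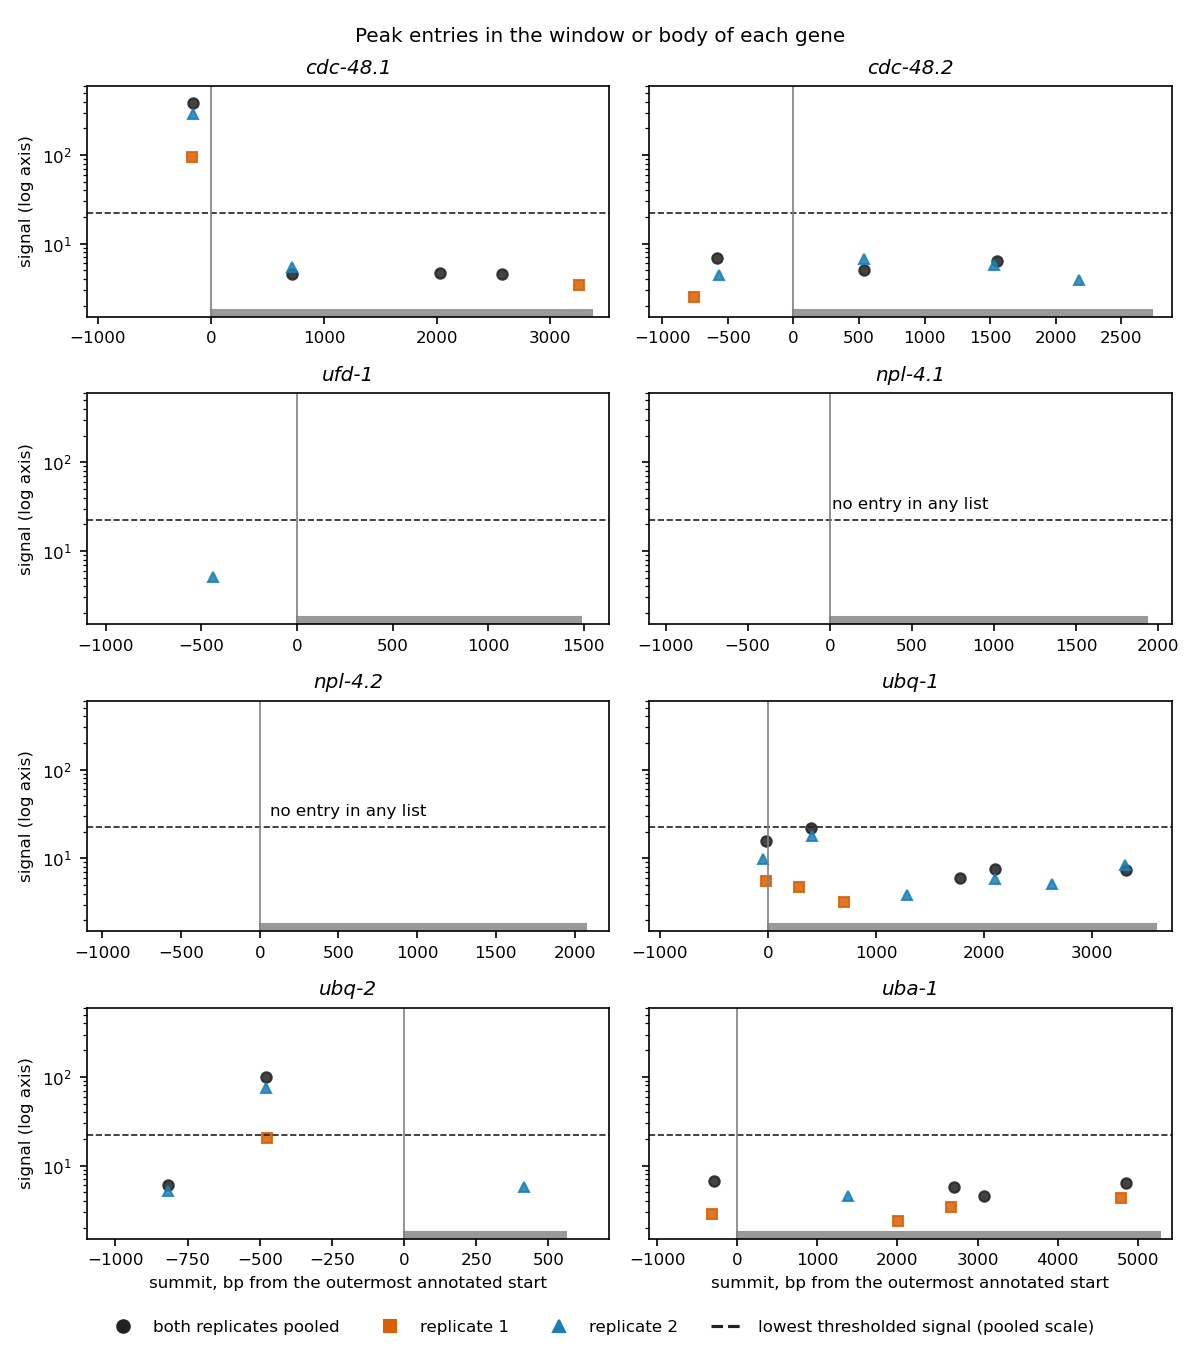
Signal of each peak entry (log axis) against the distance of its summit from the outermost annotated start of the gene in bp, 1 panel per gene, with the gene as a grey bar and negative values upstream. Circles are the pooled list, squares replicate 1 and triangles replicate 2. The cdc-48.1 entries 158 to 172 bp upstream and the ubq-2 entries 476 to 480 bp upstream are the strongest of each list drawn here, and npl-4.1 and npl-4.2 are empty. The dashed line is the lowest thresholded signal and applies to the circles only.

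The cdc-48.1 gene (WBGene00007352) lies at chrII:10560036-10563407 on the minus strand. Its thresholded peak had a signal of 383, rank 3 of 2052, and its summit, at position 10563565, was 158 bp upstream of the annotated start. In replicate 1 the peak had a signal of 94.6, the highest of all 16551 entries, with its summit 172 bp upstream. In replicate 2 it had a signal of 292, rank 3 of 30000, with its summit 158 bp upstream. The summits of the replicates were thus 14 bp apart, beside a median of 17 bp for the 1935 thresholded peaks with a match in each replicate.

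The cdc-48.1 peak was narrower than the median of each list. It was 179 bp wide in the thresholded list, beside a median of 230 bp. In replicates 1 and 2 it was 132 bp and 169 bp wide, beside medians of 240 bp and 224 bp. All remaining entries at the genes described here had exactly the median width of their list, so these medians show no spread of widths. Widths of the other very strong peaks were not compared, so the narrow width is not shown to be particular to cdc-48.1. The cdc-48.1 signal in replicate 2 over that in replicate 1 was 3.09-fold. This was within the interquartile range of 2.55 to 4.66 for the matched peaks (median 3.46). The scales of the lists differ, so this ratio gives no difference in binding.

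No other protein-coding gene had the cdc-48.1 summit in its window. The next protein-coding gene upstream, C06A1.6, ends 704 bp away on the same strand, so the summit lay between the end of C06A1.6 and the start of cdc-48.1. The summit was also 501 bp upstream of C06A1.9, a small nucleolar RNA gene on the same strand inside cdc-48.1. All 36-base words of the peak occur once in the nuclear genome. Of the protein-coding genes with a thresholded peak, 3 of 2180 had a stronger one than cdc-48.1.

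The remaining cdc-48.1 entries were weak. The pooled list had 3 inside the gene, with signals of 4.71, 4.59 and 4.54 (ranks 27235 to 29193 of 30000), of which the first and the second were also in the window of the small nucleolar RNA gene C06A1.8. Replicate 1 had 1 in an exon (signal 3.42, rank 5865) and replicate 2 had 1 in an exon (5.51, rank 13392). The nearest other thresholded peak had a signal of 33.9 and lay 930 bp past the end of the gene.

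The peaks next to that of cdc-48.1 in rank were those nearest to rpl-3, rpl-15, Y17G9B.5 and rpl-35. Likeness was the sum over the pooled, replicate 1 and replicate 2 lists of the absolute difference in log2 rank, so that 0 is an identical set of ranks. The closest was that of Y17G9B.5 (sum 2.42, pooled signal 357, ranks 4, 3 and 4), followed by rpl-3 (3.17, signal 406, ranks 1, 2 and 2), rpl-35 (3.47, signal 347, ranks 5, 4 and 5) and rpl-15 (4.49, signal 399, ranks 2, 5 and 1). The same 4 peaks were the 2 above and the 2 below cdc-48.1 in the thresholded list, which the measure largely fixes, since it uses the ranks by which cdc-48.1 stands out. The rank 2 peak was also in the window of K11H12.8 (468 bp upstream) and the rank 4 peak in that of rpl-20 (299 bp upstream), while the peaks of ranks 1, 3 and 5 were each in the window of 1 protein-coding gene. Their summits lay 163, 277, 450 and 346 bp upstream of the named gene, in that order, beside 158 bp at cdc-48.1. With 1 value per replicate, the order among the 5 strongest peaks differed between the replicates, so their order is not resolved.

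**Figure D2:**
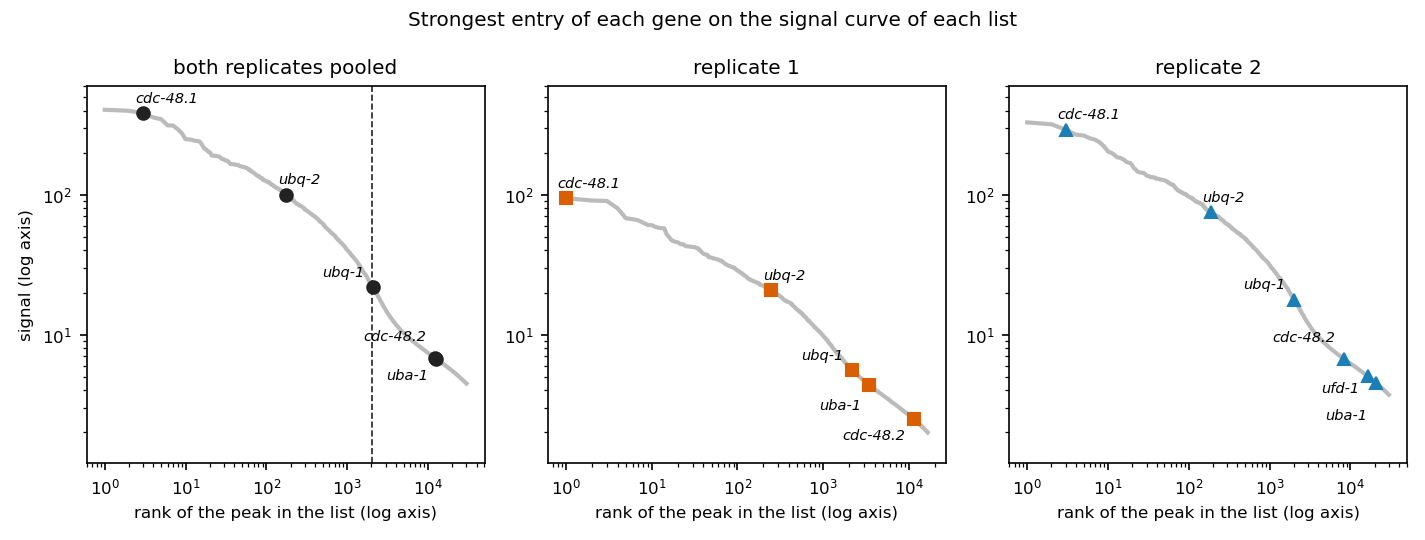
Signal against rank (both log axes) for all entries of the pooled, replicate 1 and replicate 2 lists as a grey line, with the strongest entry of each of the 8 genes marked. The cdc-48.1 entry is at rank 3, 1 and 3, ubq-2 at 176, 249 and 188, and ubq-1 at 2098, 2162 and 2004, near the dashed line that ends the thresholded ranks in the pooled list. Genes with no entry in a list are not drawn in it.

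The paralogue cdc-48.2 (WBGene00008053, chrII:8138496-8141230, plus strand) had no thresholded peak. Its strongest pooled entry had a signal of 6.85, rank 12111 of 30000 and a −log10 q of 0.464, and its summit was 581 bp upstream. That summit was also 997 bp upstream of the divergent gene ctns-1, at the outer edge of its window. In replicate 1 its single entry had a signal of 2.48, rank 11467 of 16551, 758 bp upstream. In replicate 2 the strongest entry was elsewhere, in an exon 540 bp past the start (signal 6.75, rank 8243), and the entry upstream, at 567 bp, had 4.40 (rank 21918). The 3 lists thus did not place their strongest cdc-48.2 entry at the same point, whereas the cdc-48.1 summits were at most 14 bp apart.

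The strongest entry at cdc-48.1 over that at cdc-48.2 was 55.9-fold in the pooled list, 38.1-fold in replicate 1 and 43.3-fold in replicate 2. On the log2 scale the ratio was 5.80 in the pooled list and 5.25 and 5.44 in replicates 1 and 2 (SD 0.13, n = 2). With entries in the promoter window alone it was 66.3-fold in replicate 2, 6.05 on the log2 scale, and the SD of the replicates was 0.56. The pair was chosen for its difference, and with 2 replicates no test was made. The strongest cdc-48.2 entry was 6.85 beside a median of 6.26 in the pooled list, 2.48 beside 2.91 in replicate 1 and 6.75 beside 5.26 in replicate 2.

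The coding sequences of the paralogues are alike. Over 2405 aligned bases of coding sequence (2427 in cdc-48.1 and 2430 in cdc-48.2), 77.0% were identical. Of the 36-base words in the promoter window, 90.7% at cdc-48.1 and 100% at cdc-48.2 occur once in the nuclear genome, and in the gene all words of both do.

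The cofactor gene ufd-1 (WBGene00006733, chrIV:12329408-12330890, minus strand) had no entry in the thresholded, pooled or replicate 1 lists. UFD-1 is a subunit of the adaptor pair that brings ubiquitinated substrates to CDC-48. Replicate 2 had 1 entry at ufd-1, with a signal of 5.06, rank 16311 of 30000, 440 bp upstream. The point lies in an exon of F19B6.1, the next gene upstream on the same strand, which ends 85 bp before ufd-1. All 36-base words of the ufd-1 window and gene occur once in the nuclear genome.

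NPL-4, the other subunit of the adaptor pair, is encoded by npl-4.1 (WBGene00019120, chrII:5631351-5633284, plus strand) and npl-4.2 (WBGene00019121, chrII:5622889-5624959, plus strand). Neither had an entry in any of the 4 lists. The pooled entries nearest to them were 349 bp beyond the gene for npl-4.1 (signal 5.38) and 2502 bp beyond the window for npl-4.2 (signal 4.68). The genes are near copies of each other, with 99.5% of 1587 coding bases and 300 of 300 bp upstream identical. Only 3.07% of the 36-base words in the promoter window of each occur once in the nuclear genome, and 14.4% and 16.6% of those in npl-4.1 and npl-4.2. With 50-base words it was 4.32% of each promoter window. The length of the reads, and the treatment of those with several matches, were not given. An absence of entries at these genes is therefore no measurement of absent binding, and the part of repeated sequence in it was not tested.

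**Figure D3:**
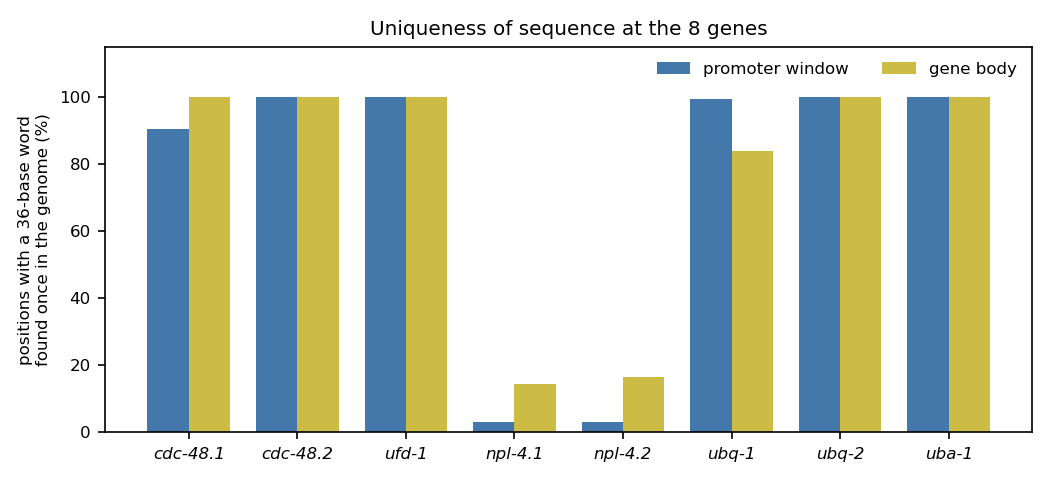
Share of positions (%) whose 36-base word occurs once in the nuclear chromosomes of WBcel235, counting both strands, in the promoter window (blue) and the gene (yellow) of each of the 8 genes. The bars of npl-4.1 and npl-4.2 are at 3.07% for the window and at 14.4% and 16.6% for the gene, and the other bars run from 84.0% (the ubq-1 gene) to 100%.

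The fusion gene ubq-2 (WBGene00006728, chrIII:12977963-12978523, minus strand) encodes ubiquitin joined to the large-subunit ribosomal protein L40. Its thresholded peak, chrIII:12978888-12979117, had a signal of 100.4, rank 176 of 2052, and its summit was 480 bp upstream of ubq-2. Replicate 1 had it at 20.7, rank 249 of 16551 (476 bp upstream), and replicate 2 at 75.1, rank 188 of 30000 (480 bp upstream). The summits of the replicates were 4 bp apart, and the ratio of replicate 2 to replicate 1 was 3.63-fold, close to the median of 3.46 for all matched peaks. The value was above the median of 44.2 for protein-coding genes with a thresholded peak, of which 247 of 2180 had a stronger one.

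The ubq-2 peak was shared with a divergent neighbour. The start of frg-1, on the plus strand, is 638 bp from that of ubq-2, and the summit was 159 bp upstream of frg-1, nearer to it than to ubq-2. A peak list cannot tell to which start a shared summit belongs. A second pooled entry in the ubq-2 window had a signal of 6.09 (rank 15962, 818 bp upstream) and lay inside frg-1. Replicate 2 had 5.10 at that point and, in an exon of ubq-2 that is also in the window of ZK1010.2, 5.65.

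The polyubiquitin gene ubq-1 (WBGene00006727, chrIII:5940254-5943841, plus strand) encodes ubiquitin units in a row, 11 of 228 bases each in a coding sequence of 2514 bases. It had no thresholded peak, but its strongest pooled entry had a signal of 21.8, rank 2098, just under the lowest thresholded signal of 22.336. The −log10 q of that entry was 3.81, the highest value of the list, which 3214 pooled entries share. Its summit was in an intron, 333 bp upstream of the inner of 2 annotated starts. The next pooled entry, 22 bp upstream of the outer start, had a signal of 15.5 (rank 2913) and the same −log10 q.

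The strongest ubq-1 entry was not at the same place in the replicates. In replicate 1 the entry 18 bp upstream of the outer start was the strongest, with 5.59 (rank 2162). An intron entry 291 bp past that start (summit 5940545) had 4.69 (rank 2975), and another, 32 bp upstream of the inner start, had 3.19 (rank 6797). In replicate 2 the intron entry 326 bp upstream of the inner start (summit 5940660) was the strongest, with 17.8 (rank 2004). The entry 44 bp upstream of the outer start had 9.69 (rank 3985). The intron summits thus differ in position between the replicates and are not shown to be 1 site. The window was not shared with another gene, and the next coding gene upstream, EGAP1.1, is 3033 bp away. A further pooled entry of 8.15 (rank 8003) lay 1006 bp upstream, just outside the window.

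Weaker entries lay along the ubq-1 exons, with pooled signals of 7.65, 7.32 and 5.95. Replicate 2 had exon entries of 8.47, 5.81, 5.10 and 3.85, whereas replicate 1 had no exon entry at ubq-1. Neighbouring ubiquitin units were 84.4% identical on average, and the ubq-2 ubiquitin sequence was up to 87.7% identical to a unit of ubq-1. Of the 36-base words in the ubq-1 gene 84.0% occur once in the nuclear genome, against 99.5% in its promoter window. The part of repeated sequence in the exon entries was not tested.

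The gene uba-1 (WBGene00006699, chrIV:9989671-9994945, minus strand) encodes the E1 enzyme that activates ubiquitin. It had no thresholded peak and 4 pooled entries, the strongest with a signal of 6.72 (rank 12731, 290 bp upstream), near the list's median of 6.26. The others had 6.29, 5.71 and 4.58 inside the gene. In replicate 1 the strongest entry was in an exon (4.34, rank 3463, 3192 bp past the nearest start), with 2.82 at 315 bp upstream. In replicate 2 the single entry had 4.53 (rank 20644) in an intron. As at cdc-48.2, the lists did not place their strongest uba-1 entry at the same point.

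Over all protein-coding genes ranked by their strongest pooled entry, 3 genes were above cdc-48.1, 247 above ubq-2, 2217 above ubq-1, 6937 above cdc-48.2 and 7181 above uba-1. In pooled signal cdc-48.2 and uba-1 differed by little (6.85 and 6.72), and their order turned round in replicate 1 (2.48 and 4.34), so these neighbours were not separated. The steps from cdc-48.1 to ubq-2 and from ubq-2 to ubq-1 were in the same direction in both replicates. Since cdc-48.1 was chosen for its signal in these data, the choice largely fixes its place above the others in each replicate.

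The base composition at the summits differed between the 2 thresholded members. The 100 bp at the cdc-48.1 summit were 40% G and C, and 8.48% of the 2052 thresholded windows were lower, with a median of 49%. The ubq-2 window was 55% G and C, and the ubq-1 windows were 57% in the intron and 55% at the outer start. The weak entries of cdc-48.2 and uba-1 were at 37%, equal to the median of the 27933 pooled entries that overlap no thresholded peak. Of the 27948 pooled entries ranked below the thresholded peaks, 15 overlap one and were left out.

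Of 5 motifs searched on both strands, few were in these windows. TAAT, the core read by many homeodomains, was found in 1 place at cdc-48.1, at the ubq-1 outer start and at uba-1, and in none at cdc-48.2, at the ubq-2 thresholded peak or in the ubq-1 intron. It was in 30.9% of thresholded windows and in 66.8% of flanking windows, 300 bp to the right of these summits. GATAA was in the ubq-1 intron window and in 10.2% of thresholded windows, against 22.5% of the windows 300 bp away. GAGAGA was at the ubq-2 summit and in 30.4% of thresholded windows, against 6.48% of those 300 bp away. CACGTG (3.27%) and TGACGTCA (0.926% of thresholded windows) were in none of the windows searched. These were the pooled promoter summits of cdc-48.1, cdc-48.2, ubq-1, ubq-2 and uba-1. The genes ufd-1, npl-4.1 and npl-4.2 had no such summit and were not searched. The median share of G and C was 49% in thresholded windows and 35% in the flanking ones. The part of base composition in these shares, and in the word shares below, was not tested. A match describes the letters only.

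The cdc-48.1 window shared short words with other very strong peaks. Of its 92 distinct 6-base words, 4 were in at least 6 of the 14 other windows among the 15 strongest, counting both strands. ACACTT and TACACT, which overlap each other in one place, were in 7 of 14 each, and AACACG and ACACGC, which also overlap, in 6 of 14 each. Among the 85 windows of ranks 16 to 100 the shares were 7.06% for ACACTT, 3.53% for TACACT, 10.6% for AACACG and 11.8% for ACACGC. In the windows 300 bp from the thresholded summits they were 5.41%, 2.44%, 3.27% and 2.05% in the same order. The words were picked because they are in these strongest windows, so the counts of 7 and 6 of 14 are fixed by the choice. In the pooled entries that overlap no thresholded peak they were 6.41%, 3.46%, 3.62% and 2.34%, so ACACTT and TACACT were about as common there as at ranks 16 to 100. The cdc-48.1 window held ACACTT in 2 places and each of the others in 1. No window searched at cdc-48.2, ubq-1, ubq-2 or uba-1 held any of the 4.

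Wider lists of the system were read to place these genes among their partners. The lists were made from gene names with earlier results of these data known, so their counts are descriptions, set beside 10.9% of all protein-coding genes. Together and without the 8 genes they held 136 annotated genes, of which 40 had a thresholded peak (29.4%). The median signal of the 40 was 51.1 (24.5 to 132), beside 44.2 for all 2180 protein-coding genes with a peak. Of the 40, 32 (80%) had an entry among the 2052 strongest of each replicate, beside 72.3% of the 2180, and 20 (50%) shared their peak with another protein-coding gene, beside 55.3%. The summit was upstream in 39 of 40 (97.5%), beside 87.98%, at a median distance of 272 bp, beside 250.5 bp. None of the 136 reached the signal of cdc-48.1. That gene was chosen for its signal, and only 3 of the 2180 had a stronger peak, so the choice largely fixes this.

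**Figure D4:**
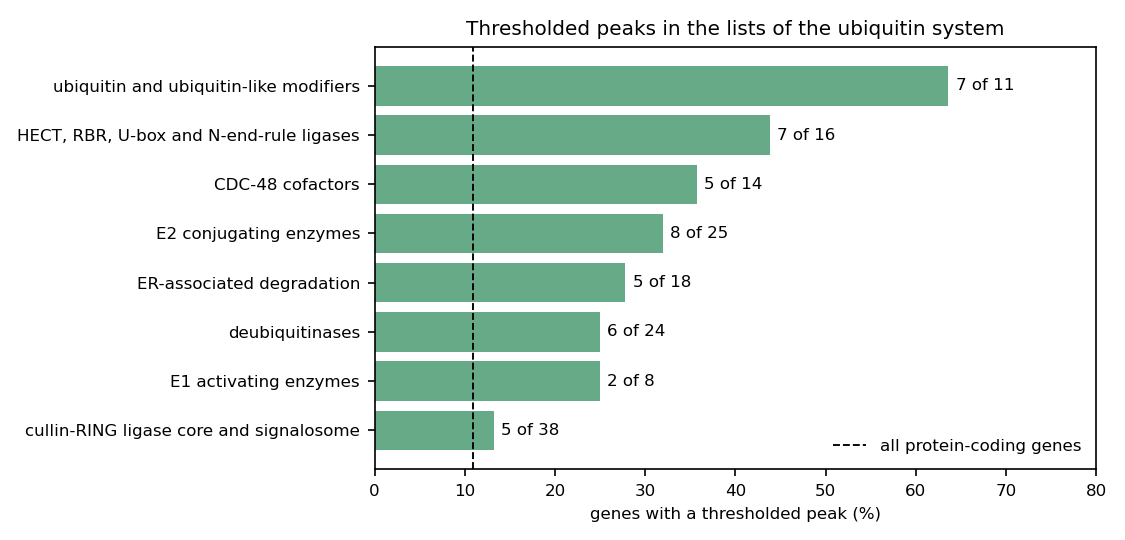
Share of genes (%) with a thresholded peak in each list of the ubiquitin system, with the counts beside the bars. The dashed line is the share over all protein-coding genes, 10.9%. The lists run from 63.6% for ubiquitin and ubiquitin-like modifiers to 13.2% for the cullin-RING ligase core and signalosome, and include ubq-2 and cdc-48.1 among the modifiers and the ER-associated degradation genes.

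Genes for modifiers had peaks at 7 of 11 (63.6%), ubq-2 included. The strongest was that of lgg-2, an Atg8-family protein of autophagy (295 bp upstream, rank 127 in replicate 1), then ubq-2, urm-1, a ubiquitin-like protein that also serves as a sulphur carrier (94.5, rank 198, shared with taf-11.3), and ubl-1, a ubiquitin-like protein fused to a small-subunit ribosomal protein (92.8, rank 206, 200 bp upstream). The others were lgg-1 (80.3), smo-1, which encodes SUMO (35.4), and ubl-5 (29.8). The smo-1 peak had no entry in replicate 1 and rests on replicate 2. The ubl-1 peak was not shared with another protein-coding gene, whereas the ubq-2 summit was nearer to frg-1.

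Of the CDC-48 cofactor genes 5 of 14 had a peak (35.7%), though none of ufd-1, npl-4.1 and npl-4.2 did. They were ufd-3, whose product binds CDC-48 and ubiquitin (signal 106, rank 157, 132 bp upstream), ubxn-2, a UBX-domain adaptor (95.8, rank 192, 169 bp upstream), ufd-2, a ligase that lengthens ubiquitin chains (60.8, rank 515, 319 bp upstream), ubxn-3, another UBX-domain adaptor (52.3, rank 667, 655 bp upstream), and ubxn-1 (24.5, rank 1838). The ubxn-3 entry ranked 2299 in replicate 1 and the ubxn-1 entry 4015 in replicate 2, both outside the strongest 2052. The ubxn-1 peak was shared with tipn-1.

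Ligases of the HECT, RBR, U-box and N-end-rule kinds had peaks at 7 of 16 (43.8%). The leading ones were wwp-1, a HECT ligase (signal 132, rank 85, 242 bp upstream), prp-19, a U-box protein of the spliceosome (126, rank 96, shared with emb-1 and K10D2.5), eel-1, a HECT ligase (91.3, rank 216, 366 bp upstream), and ufd-2, given above. The wwp-1 peak ranked 88 and 91 in replicates 1 and 2, and the eel-1 peak 303 in replicate 2. The remaining 3 were pdr-1 (40.1), ubr-4 (36.1) and ubr-5 (26.5), whose peaks were shared with cyk-4, ssb-1 and F29D10.1 in that order. The pdr-1 entry ranked 2112 in replicate 1, outside the strongest 2052, and ubr-5 had no entry there.

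The E2 list holds enzymes that carry activated ubiquitin or a ubiquitin-like modifier, and variants such as uev-1. It had peaks at 8 of 25 genes (32%), with signals of 35.3 to 70.4. The strongest were let-70, a broadly acting E2 (70.4, rank 390, shared with klc-1), ubc-6 (53.01, rank 646, shared with aka-1), ubc-25 (49.7, rank 726) and ubc-3, the E2 of cullin ligases (46.4, rank 812). The ubc-3 entry ranked 2415 in replicate 1. Of the E1 genes 2 of 8 had one (25%), uba-5, for the modifier UFM-1 (55.4, rank 603, shared with clec-53), and uba-2, for SUMO (25.4, rank 1782, shared with vps-25, and rank 3960 in replicate 2). The ubiquitin E1 gene uba-1 was not among them.

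The list of deubiquitinases, a class of enzymes that remove ubiquitin, was made from gene names and not from known activity. It had peaks at 6 of 24 genes (25%). The strongest was that of rpn-11, the deubiquitinase of the proteasome (signal 103, rank 166, 16 bp upstream). Next were usp-39, a spliceosome protein (95.6, rank 195, 172 bp upstream), usp-4 (77.04, rank 320, 668 bp upstream) and math-33 (58.4, rank 542, shared with erfa-3). All 6 were among the strongest 2052 entries of both replicates.

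Genes of ER-associated degradation, in which CDC-48 draws misfolded proteins from the endoplasmic reticulum, had peaks at 5 of 18 (27.8%), cdc-48.1 included. The others were the E2 genes ubc-6 and ubc-7 (41.6), rnf-121, an ER ligase (49.4, shared with C16C10.4), and sel-9, a p24-family protein of transport from the ER (27.1). Cullin-RING and signalosome genes had peaks at 5 of 38 (13.2%), near the share of all genes, with the cullins cul-3 (52.4) and cul-4 (50.01), elb-1 (45.95, rank 2141 in replicate 1), csn-1 (41.3) and ddb-1 (30.2). The peaks of elb-1, csn-1 and ddb-1 were shared with other protein-coding genes.

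**Figure D5:**
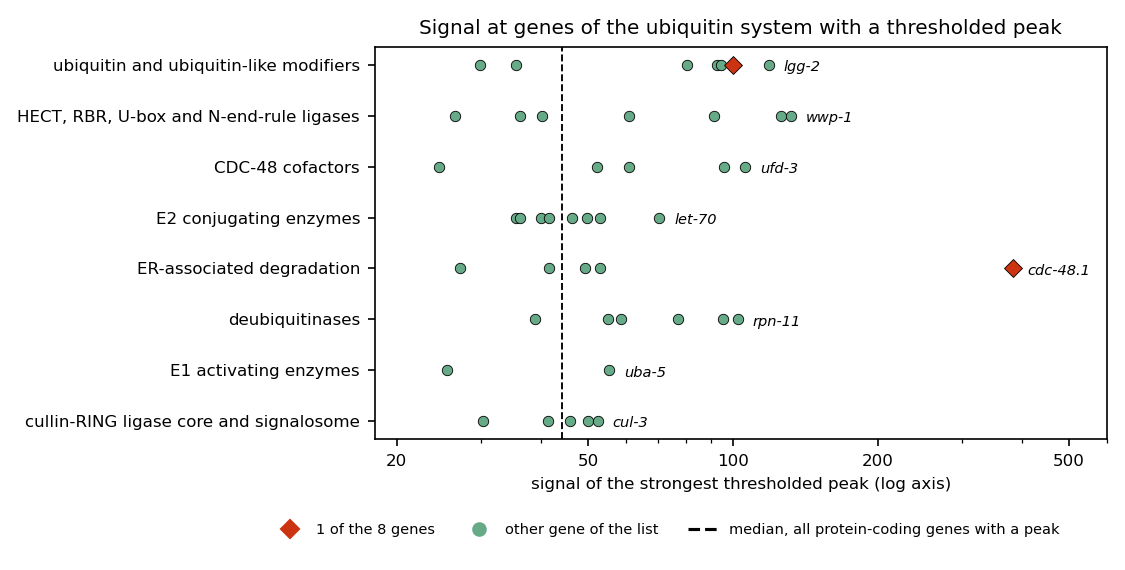
Signal of the strongest thresholded peak (log axis) of each gene with one, by list. Red diamonds are cdc-48.1 and ubq-2, green circles the other genes, and the dashed line the median of 44.2 over all protein-coding genes with a peak. The circles end at 132 (wwp-1) and cdc-48.1, which was chosen for its signal, is at 383, while ubq-2, at 100.4, is among the other modifiers.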

How the data were processed

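The authors called peaks for each replicate and for the pooled replicates and thresholded them by irreproducible discovery rate, with a control file among the inputs, per the file headers. No source used here names the aligner, the peak caller, the threshold or the read depth, so the precision that depth gives is unknown. The deposited signal is the authors' score per peak. The deposited −log10 q values, as the authors calculated them, were all 3.81 in the thresholded list and were not used to rank. Lists on the older build were not used.

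Summits on ce11 were set against the WBcel235 annotation (Ensembl release 115) and RefSeq sequence. Identity came from pairwise alignment, words and motifs from 100 bp windows. The assignment of summits to genes was tested on simulated data. Python 3.11.15, NumPy 2.4.6, pandas 2.3.3, Biopython 1.88 and matplotlib 3.10.9 were used. No statistical test was made, since there is 1 group of 2 replicates. The labels do not say that the replicates came from separate cultures.

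The 8 genes and all lists were chosen with earlier results of these data known. The rule for naming took the 8 genes, those sharing their summits, up to 4 genes with the strongest thresholded peak in each list, the peaks nearest to cdc-48.1 in rank or most like it, ceh-82 and unc-119. Other genes named in the lists were added after their values were seen. One gene, tufm-1, which encodes a mitochondrial elongation factor, was in the list of modifiers by mistake and was left out. The names uba-3, hace-1, hul-1, der-1 and duo-2 matched no annotated gene. The alternatives were other windows, overlap in place of summits, a stricter threshold, each replicate alone and peaks at a single gene.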

Additional observations from a re-analysis of the deposited data

How the results depend on the processing

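With 500 or 2000 bp upstream, the promoter window alone, any overlap of at least 1 bp, or signals above the median, cdc-48.1 and ubq-2 remained the only 2 of the 8 genes with a thresholded peak. With peaks at a single protein-coding gene only cdc-48.1 remained (1), the count for all protein-coding genes was 987 (4.94%) and that for the wider lists 20 (14.7%). With signals above the median it was 1229 of all genes (6.15%), and 29 (21.3%) for the wider lists. By replicate alone, using as many of its strongest entries as the thresholded list holds, 2 to 3 of the 8 genes had a peak, with ubq-1 added without replicate 1. Of all protein-coding genes, 10.3% had one with replicate 1 alone and 10.8% with replicate 2 alone. Over the other alternatives the count for the wider lists ran from 33 (24.3%, 500 bp upstream) to 45 (33.1%, 2000 bp upstream). The share of all protein-coding genes ran from 9.43% to 13.5% at the same settings. The count for the wider lists was 41 (29.9%) with tufm-1 kept in the list, an alternative chosen after seeing the data. Left with 1 replicate, the log2 ratio of cdc-48.1 over cdc-48.2 was 5.25 to 5.44, the cdc-48.1 rank 1 to 3 and its summit -172 to -158 bp from the start. Both ends of these ranges are values of the 2 relaxed lists, whose scales differ from that of the pooled list. The wider lists were made from names and miss members with other names. No paired analysis was possible because there is 1 group. Read depth, the control signal and the number of reads with several matches would limit the weak entries and were not analysed here.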
